A study of Mus musculus with 18 samples.

Results

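Wnt feedback and direct target genes were followed across mouse gastruloids that received a pulse of Wnt activation at either of 2 times. The set holds 10 genes, Axin2, Nkd1, Notum, Rnf43, Znrf3, Dkk1, Apcdd1, Tnfrsf19, Lgr5 and Sp5, taken by name from a count table of 55385 genes, and all 10 passed the filter on low counts that left 16041 genes for testing. Gastruloids are aggregates of mouse embryonic stem cells that elongate and form derivatives of the germ layers in culture without extraembryonic tissue, and CHIR is an inhibitor of the kinase GSK3 that turns on Wnt/β-catenin signalling. PolyA RNA was sequenced from 18 libraries, 3 in each of 6 groups, all of wild-type (WT) cells of strain 129/SVEV. The untreated group had no CHIR and was taken at 48 h after aggregation. The early arm had CHIR between 24 and 48 h and was taken at 48, 72 and 96 h, and the control arm had CHIR between 48 and 72 h and was taken at 72 and 96 h. Gastruloids of a condition were pooled before extraction, per the labels' protocols, and the labels do not say whether replicates were separate cultures, so p-values reflect only how these samples vary, and that variation may be technical.

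When β-catenin is stabilised it enters the nucleus and acts with TCF and LEF factors at target genes, and several of those targets encode proteins that dampen the pathway again. Axin2 is a scaffold of the complex that degrades β-catenin, Nkd1 binds Dishevelled and restrains signalling inside the cell, and Notum removes the lipid that Wnt ligands need to bind their receptors. Rnf43 and Znrf3 are membrane ubiquitin ligases that clear Frizzled receptors, Lgr5 is a receptor for the R-spondins that block those ligases, Dkk1 is a secreted inhibitor of the co-receptors Lrp5 and Lrp6, and Apcdd1 is a membrane inhibitor. Tnfrsf19, also called Troy, is a member of the TNF receptor family induced by Wnt signalling, and Sp5 is a zinc finger factor that binds many Wnt target genes. CHIR acts at GSK3, inside the cell and below the ligands and receptors.

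All 10 members are protein-coding genes, and the deposited mm10 positions of all 10 equal those of GENCODE release M21. Axin2 lies on chromosome 11 at 108920349 to 108950783 and Sp5 on chromosome 2 at 70474923 to 70477729, both on the plus strand. RefSeq promoter sequences (GRCm38.p6) were found for 6 of the 10 members, with 8 entries in all. The 250 bases before the start site were searched on both strands for CTTTGAT and CTTTGTT. These are forms of the TCF/LEF motif and do not overlap each other in these sequences. Of the 8 entries 3 held a match, each of a different member. Of 32851 mouse promoters of the same length, 3.21% held CTTTGAT, 5.03% held CTTTGTT and 8.06% held either. The sequences of Sp5 (chr2:70474673-70474922, plus strand) and Axin2 (chr11:108920099-108920348, plus strand) are shown because Sp5 had no count before a pulse and Axin2 was the most abundant member at the end of either pulse. No annotated exon overlaps either window, and capitals mark the motif matches.
Sp5: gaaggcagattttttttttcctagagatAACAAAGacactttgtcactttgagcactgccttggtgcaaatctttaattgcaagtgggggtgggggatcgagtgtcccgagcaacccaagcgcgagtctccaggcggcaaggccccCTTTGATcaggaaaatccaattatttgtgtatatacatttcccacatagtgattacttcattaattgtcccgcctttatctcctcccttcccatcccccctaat
Axin2: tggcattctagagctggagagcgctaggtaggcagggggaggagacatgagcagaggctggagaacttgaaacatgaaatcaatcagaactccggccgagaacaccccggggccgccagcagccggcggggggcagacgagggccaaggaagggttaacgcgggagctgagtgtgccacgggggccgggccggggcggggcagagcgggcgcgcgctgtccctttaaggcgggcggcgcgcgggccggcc
The Sp5 sequence held CTTTGAT starting 104 bases and AACAAAG, the reverse complement of CTTTGTT, starting 222 bases before the start site, whereas the Axin2 window held neither. The other 2 members with a match were Dkk1 (chr19:30549576-30549605, minus strand, in the untranslated part of an annotated Dkk1 exon) and Tnfrsf19 (chr14:61038171-61038200, minus strand, in an intron of longer Tnfrsf19 transcripts), shown as the 30 bases around it.
Dkk1: tcccatcccggCTTTGTTgtcttccctgag
Tnfrsf19: ctgaatgggggATCAAAGtgacaaactaga
The 250-base Tnfrsf19 window overlaps an annotated exon of Gm41168, a noncoding gene on the opposite strand, outside the 30 bases shown. These matches describe the letters in the windows, and no binding was measured.

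Library totals ran from 14841728 to 24536538 counts. At each age the control library numbered 3 differed more from its 2 replicates (chi-square over its degrees of freedom, 15.4 to 28.1) than any other replicates did from each other (1.41 to 7.90). The protocol text names 2 library preparation codes without assigning libraries to them, so preparation could not be modelled, and its part in this difference or in those between arms was not tested. That library had the highest of the 3 values for 5 members and the lowest for 4 in untreated gastruloids, for 3 and 6 in the control arm at 72 h, and for 6 and 4 at 96 h. Markers of the labelled material were present: the 6 pluripotency markers, all at 1 CPM or more in each group, summed to 1592 to 3616 CPM (counts scaled to library size by the TMM method) in every library. The 5 primitive streak markers summed to 9.12 to 11.3 CPM in untreated gastruloids, 88.6 to 109 at the end of the early pulse and 1010 to 1664 at the end of the control pulse. The 6 fibroblast and feeder markers summed to 7.35 to 39.1 CPM over all libraries, and Lum was at 0 in every group. In bulk RNA, fewer cells of a type and less RNA per cell cannot be told apart.

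**Figure D1:**
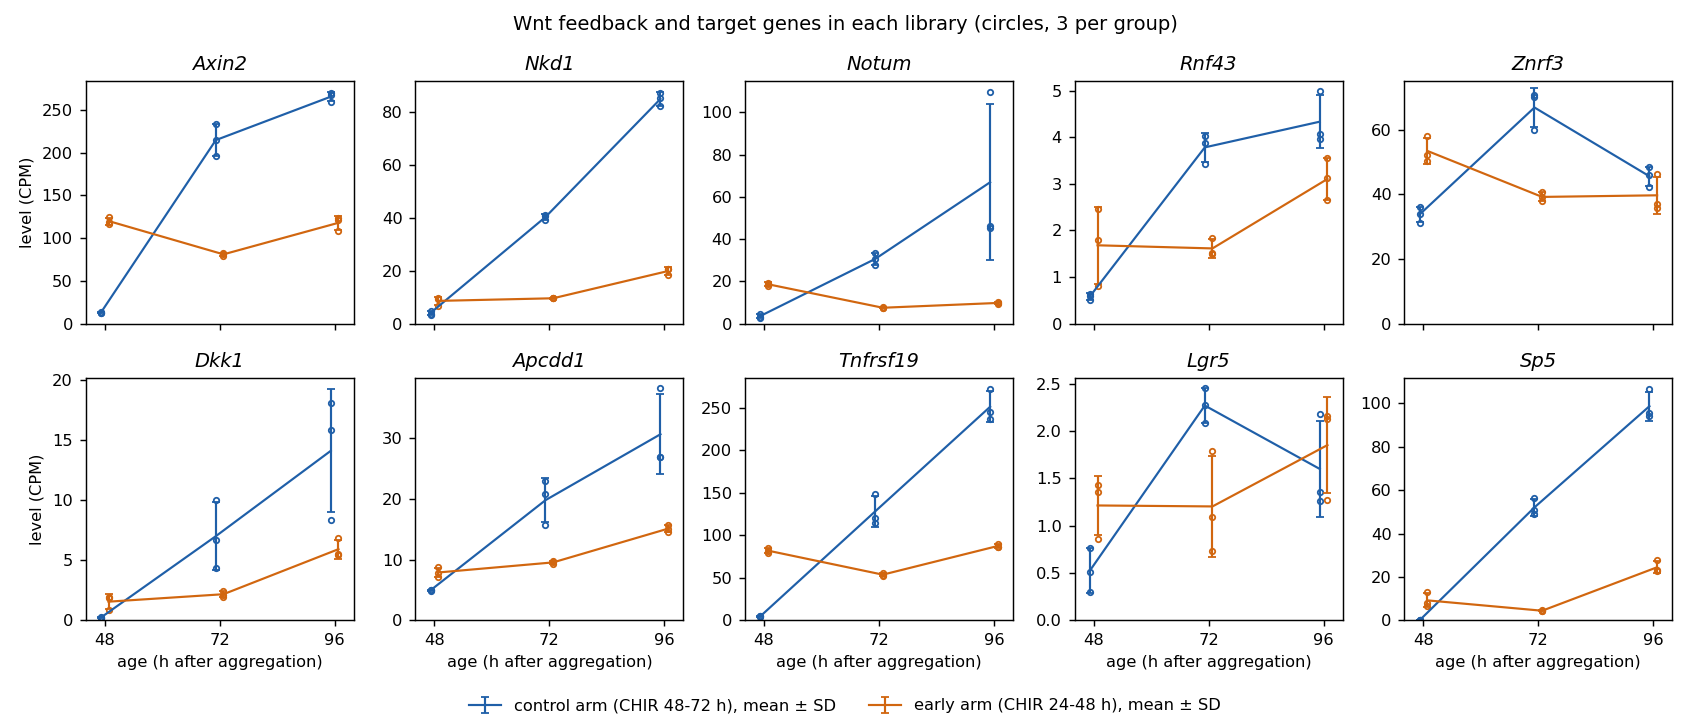
CPM (y axis, linear, a scale of its own in each panel) of the 10 members against hours after aggregation, with circles for libraries and lines and bars for the mean and SD of 3 libraries in the control arm, which starts with the untreated group, and in the early arm. Axin2 goes from 12.7 CPM untreated to 266 CPM in the control arm at 96 h, and from 120.05 through 81.0 to 118 CPM in the early arm.

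Levels between genes were compared in FPKM, the authors' values scaled by transcript length. In untreated gastruloids Znrf3 was the most abundant member at 4.83 FPKM, followed by Axin2 at 2.29, and Sp5 was listed at 0. Nkd1, Notum, Apcdd1 and Tnfrsf19 followed between 0.928 and 1.37 FPKM with libraries that overlapped from each gene to the next, and Lgr5, Rnf43 and Dkk1 stood at 0.139, 0.125 and 0.0746 FPKM. At the end of the early pulse the order was led by Axin2 at 20.5 and Tnfrsf19 at 14.9 FPKM, and Znrf3, at 6.98 FPKM, came next. Notum (5.91 FPKM) followed, then Sp5 (3.27) and Nkd1 (2.89), whose libraries overlapped.
At the end of the control pulse Axin2 was at 41.0, Tnfrsf19 at 26.0, Sp5 at 20.5 and Nkd1 at 14.9 FPKM, with no overlap between neighbours, and Znrf3 was at 9.87. A day later Tnfrsf19 and Axin2 shared the top place at 51.4 and 51.0 FPKM. Dkk1, Rnf43 and Lgr5 were the 3 lowest members in each of the 5 pulsed groups.

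**Figure D2:**
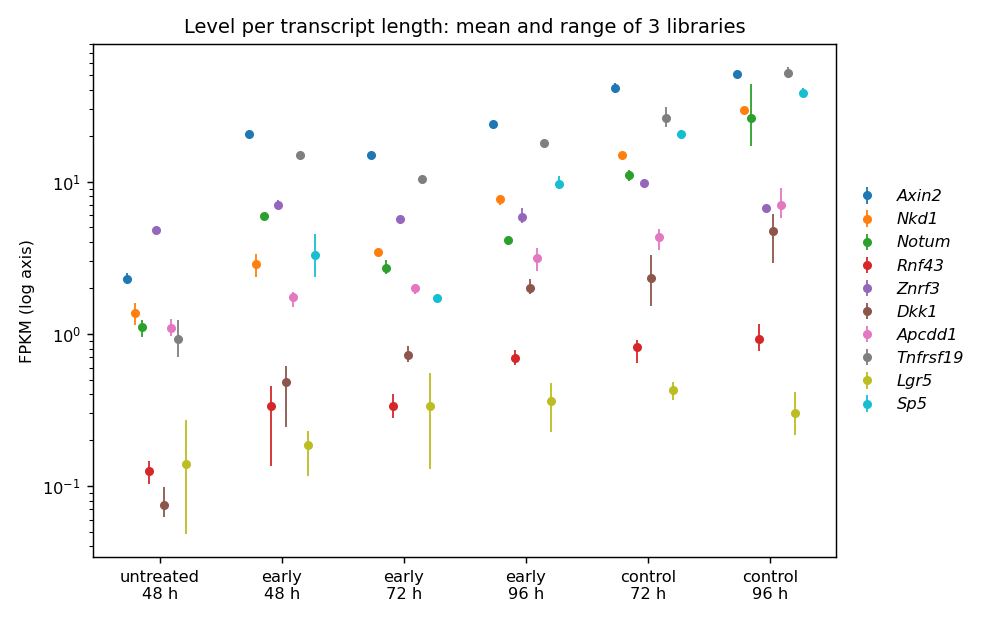
FPKM of each member (log axis) in the 6 groups, with points for the mean and bars from the lowest to the highest of 3 libraries. Sp5 is listed at 0 in untreated gastruloids and is not drawn there. Axin2 and Tnfrsf19 lead after either pulse, and Znrf3 leads before it.

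At the end of the early pulse all 10 members were higher than in untreated gastruloids of the same age. Sp5 went from no count to a detected transcript, Tnfrsf19 and Axin2 rose the most among the members with counts in untreated libraries, and the ligase Znrf3 and the membrane inhibitor Apcdd1 rose the least. Tests are edgeR's quasi-likelihood test over all 18 libraries with Benjamini-Hochberg adjustment over 16041 genes, called at an adjusted p under 0.05, and differences are in log2 units with their SE. Of all tested genes, 23% were called higher in this comparison. The median difference was 1.97 over the members and 0.02 over all tested genes. The members were chosen with earlier results of these data known, so such shares and medians, here and below, describe the set and do not test it.

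Among the intracellular regulators, Axin2 was at 12.02, 12.3 and 13.7 CPM in untreated libraries and at 119, 117 and 125 CPM after the early pulse, a difference of 3.25 ± 0.07 (adjusted p = 1.10e-15). Nkd1 was at 4.84, 3.71 and 3.40 CPM untreated and 9.81, 6.69 and 9.15 CPM pulsed, a difference of 1.10 ± 0.13 (adjusted p = 2.29e-06). Sp5 had 0 counts in all 3 untreated libraries and 8.07, 6.75 and 12.9 CPM after the pulse. Against 3 counts over the untreated group, Sp5 was at least 170.4-fold higher, and at least 108-fold when untreated replicate 2 was left out. Such bounds cover counting error only.

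Of the members at the cell surface or secreted, Tnfrsf19 was at 4.63, 4.01 and 5.32 CPM untreated and 85.3, 79.2 and 81.8 CPM pulsed, a difference of 4.15 ± 0.11 (adjusted p = 9.85e-15). Notum rose from 2.80, 3.27 and 4.49 CPM to 18.9, 17.6 and 19.3 CPM, a difference of 2.42 ± 0.31 (adjusted p = 3.83e-06). Znrf3 rose from 33.8, 36.1 and 31.2 CPM to 58.0, 52.1 and 50.2 CPM, a difference of 0.66 ± 0.09 (adjusted p = 1.37e-05). No pulsed library of these 3 genes overlapped an untreated one, and the same held for all 10 members, against 29.5% of all tested genes. The related ligase Rnf43 was far lower, at 0.509, 0.594 and 0.641 CPM untreated and 1.79, 2.46 and 0.801 CPM pulsed (1.52 ± 0.32, adjusted p = 8.64e-04). Dkk1 rose from 0.306, 0.198 and 0.192 CPM to 1.98, 0.859 and 1.83 CPM (2.72 ± 0.59, adjusted p = 9.61e-04). Apcdd1 rose from 4.99, 4.95 and 4.87 CPM to 7.11, 8.72 and 7.78 CPM (0.67 ± 0.16, adjusted p = 0.00278). In the libraries of these 3 genes the pulsed values spread more widely than the untreated ones.

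Lgr5 was at 0.509, 0.297 and 0.769 CPM untreated and 1.35, 0.859 and 1.43 CPM pulsed (1.26 ± 0.40, adjusted p = 0.0166). Its call rested on few reads, 6 to 12 counts in an untreated library and 14 to 28 in a pulsed one, and was lost without untreated replicate 2 (adjusted p = 0.0915), pulsed replicate 1 (0.0577) or pulsed replicate 3 (0.0585). With limma on log2(FPKM + 1), the early pulse called 6 members, and Rnf43, Dkk1, Apcdd1 and Lgr5 were not called (adjusted p = 0.068, 0.118, 0.0562 and 0.757).

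The control pulse ran from 48 to 72 h, and its end was compared with the same untreated group, so age and pulse changed together and both pulse responses share their reference. All 10 members were higher at the end of the control pulse, where 31.1% of all tested genes were called higher, and no library of a member overlapped, against 33.6% of all tested genes. The median difference was 3.23 over the members and 0.01 over all tested genes. Axin2 stood at 215, 234 and 196 CPM (4.09 ± 0.07, adjusted p = 1.96e-17), and Tnfrsf19 at 115, 121 and 149 CPM (4.79 ± 0.11, adjusted p = 2.99e-16). Sp5 stood at 50.9, 56.3 and 49.0 CPM, at least 967-fold above the untreated bound, or at least 614-fold without untreated replicate 2. Nkd1 reached 40.6, 41.1 and 39.1 CPM (3.33 ± 0.12), with no library near the untreated 3.40 to 4.84 CPM. Dkk1 reached 6.66, 10.01 and 4.35 CPM (4.88 ± 0.47) and Apcdd1 20.7, 22.8 and 15.7 CPM (2.00 ± 0.15), and in both genes control replicate 3 was the lowest. The ligases reached 70.7, 69.99 and 59.8 CPM for Znrf3 (0.99 ± 0.09) and 3.89, 3.44 and 4.03 CPM for Rnf43 (adjusted p = 2.60e-07).

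A direct comparison of the ends of both pulses, which differ in age, placed all 10 members lower after the early pulse, where 31.7% of all tested genes were called lower, with a median of -1.03 over the members and -0.02 over all tested genes. No library of the early pulse reached the control pulse for any member, against 34.4% of all tested genes lower without overlap. The size of the gap differed by gene. Expressed as the early rise over the untreated mean in percent of the control rise, Tnfrsf19 (62.7%), Znrf3 (59.5%), Notum (55.8%) and Axin2 (53.1%) gained more than the other members, and Nkd1 (12.6%), Sp5 (17.7%), Dkk1 (19.6%) and Apcdd1 (19.8%) the least. In log2 units the difference was -2.50 ± 0.15 for Sp5 (adjusted p = 7.83e-10) and -2.22 ± 0.11 for Nkd1 (6.74e-12), but -0.64 ± 0.08 for Tnfrsf19 (1.38e-06) and -0.84 ± 0.06 for Axin2 (1.16e-09). The calls for 2 members rested on single libraries. Notum (-0.71 ± 0.24, adjusted p = 0.0169) was lost without early 48 h replicate 2 (0.0504), and Lgr5 (-0.89 ± 0.32, adjusted p = 0.0226) without that library (0.0959), without control 72 h replicate 1 (0.0643) or on log2(FPKM + 1) (0.0554). The summed primitive streak markers were 88.6 to 109 CPM after the early pulse and 1010 to 1664 CPM after the control pulse. T and Fgf8 in this list are also Wnt targets, and T alone had means of 40.6 and 1048 CPM. The 5 neuromesodermal and tailbud markers summed to 239 to 307 and 302 to 576 CPM, against 162 to 191 CPM untreated. That list shares Sox2 with the 6 pluripotency markers, which summed to 3514 to 3616 and 2714 to 2751 CPM. The part of these markers in the gap was not tested.

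**Figure D3:**
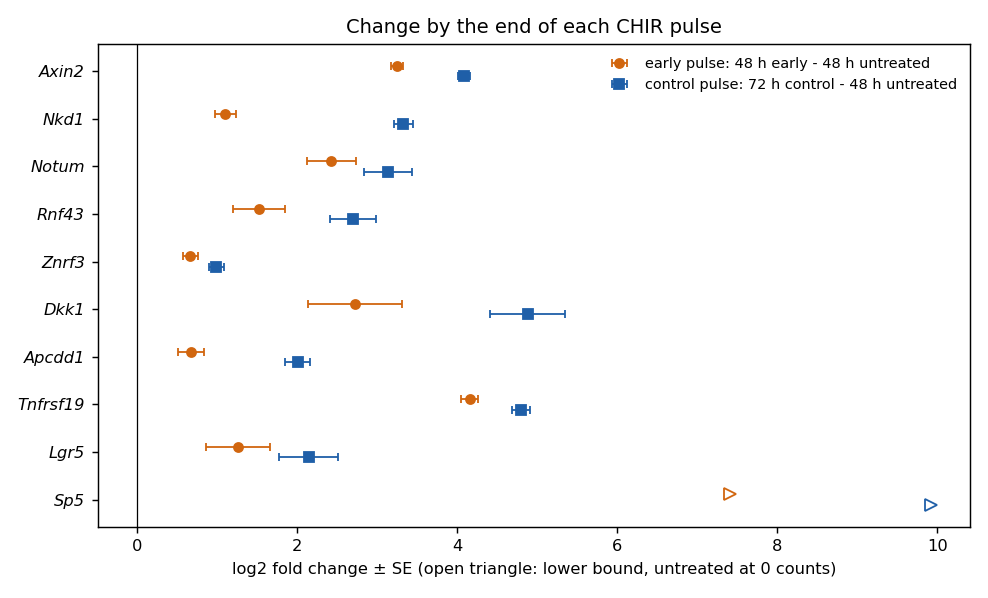
Difference from untreated gastruloids (x axis, log2 units) of each member at the end of the early and of the control pulse, with bars for the SE of the fit, and open triangles for the lower bounds of Sp5. All 10 members lie above 0 in both, and the control pulse lies to the right for each, for example 4.09 against 3.25 for Axin2.

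A day after the early pulse ended, 5 members had fallen and none of the 10 was called higher, while 21.9% of all tested genes were called lower and 20.7% higher. The members that fell were Notum, Sp5, Tnfrsf19, Axin2 and Znrf3. Notum, the Wnt deacylase, fell from 18.9, 17.6 and 19.3 CPM to 7.79, 7.29 and 7.33 CPM (-1.32 ± 0.27, adjusted p = 7.86e-04). Sp5 fell from 8.07, 6.75 and 12.9 CPM to 4.76, 4.24 and 4.35 CPM (-1.05 ± 0.19, adjusted p = 3.32e-04). Tnfrsf19 fell to 55.5, 53.5 and 52.4 CPM (-0.61 ± 0.08) and Axin2 to 79.4, 82.1 and 81.6 CPM (-0.57 ± 0.06, adjusted p = 1.08e-06). Znrf3 fell to 39.0, 37.8 and 40.6 CPM (-0.45 ± 0.09, adjusted p = 7.69e-04). None of these 5 genes had a 72 h library that overlapped a 48 h one, against 31.2% of all tested genes lower without overlap. Of the rise over untreated at the end of the pulse, 26.2% was left for Notum, 27.7% for Znrf3, 48.2% for Sp5, 63.5% for Tnfrsf19 and 63.6% for Axin2.

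The other 5 members were not called over that day. Nkd1 was at 9.47, 9.49 and 9.65 CPM at 72 h (0.15 ± 0.12, adjusted p = 0.33) and Dkk1 at 2.08, 2.49 and 1.97 CPM (0.47 ± 0.38, adjusted p = 0.337). Apcdd1 was at 9.23, 9.70 and 9.65 CPM, above all 3 libraries at the end of the pulse, and its difference of 0.28 ± 0.15 did not pass (adjusted p = 0.143). It was called higher without control 96 h replicate 3 in the fit (0.30, adjusted p = 0.0435), a library outside this comparison that enters through the shared estimate of spread. Rnf43 was at 1.49, 1.51 and 1.85 CPM (-0.06 ± 0.27) and Lgr5 at 1.09, 0.733 and 1.79 CPM (-0.07 ± 0.34), and the libraries of both overlapped those of the pulse end. The share of the Rnf43 rise left was 93.9%, or 145% without early 48 h replicate 2, and that of Lgr5 was 98.5%, or 56.2% without early 72 h replicate 3 and 417% on the authors' FPKM, so the Lgr5 share has no settled direction.

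The first day after the control pulse went differently. From 72 to 96 h 7 members rose and 1 fell, against 27.5% and 27.4% of all tested genes. Tnfrsf19 went from 115, 121 and 149 to 237, 245 and 272 CPM (0.97 ± 0.08, adjusted p = 6.56e-09), and Nkd1 from 40.6, 41.1 and 39.1 to 87.2, 85.3 and 82.1 CPM (1.08 ± 0.09, adjusted p = 1.60e-08). Sp5 rose from 50.9, 56.3 and 49.0 to 106, 95.7 and 94.0 CPM (0.92 ± 0.13, adjusted p = 1.56e-05). Axin2 rose less, from 215, 234 and 196 to 259.7, 267 and 270.1 CPM (0.31 ± 0.06, adjusted p = 2.19e-04), with no overlap. Notum reached 46.1, 45.1 and 109.5 CPM (1.12 ± 0.23, adjusted p = 4.52e-04), with control replicate 3 far above the others. In that library Notumos, an antisense gene that overlaps Notum, also had its highest count, 56 of 148 over all libraries, and the strand setting of the counting is not given in the sources used here. The rise of Notum over untreated at 96 h was 234% of that at 72 h, and 155.5% without this library.

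Apcdd1 rose to 26.8, 26.8 and 38.2 CPM (0.62 ± 0.13, adjusted p = 5.58e-04), again highest in control replicate 3. Dkk1 rose to 18.1, 15.9 and 8.36 CPM (1.01 ± 0.27, adjusted p = 0.00374), but its libraries overlapped the 4.35 to 10.01 CPM of 72 h, and the call was lost in a fit of the 2 groups alone (adjusted p = 0.0539). Znrf3 was the member that fell, to 46.0, 48.3 and 42.3 CPM (-0.55 ± 0.09, adjusted p = 4.96e-05). Rnf43 was at 4.06, 3.96 and 4.99 CPM (0.19 ± 0.22, adjusted p = 0.481). Lgr5 was at 1.26, 1.36 and 2.18 CPM (-0.53 ± 0.31, adjusted p = 0.151) and was called lower without control 96 h replicate 3 (-0.79, adjusted p = 0.0342).

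The change over the first day was compared between the arms by an interaction term, in which the 4 groups share no library but differ in age. It was more negative in the early arm for 5 members, against 21.7% of all tested genes. The difference was -2.44 ± 0.36 for Notum (adjusted p = 2.25e-05), -1.98 ± 0.23 for Sp5 (3.50e-06), -1.58 ± 0.11 for Tnfrsf19 (3.74e-09), -0.93 ± 0.15 for Nkd1 (5.83e-05) and -0.87 ± 0.08 for Axin2 (1.78e-07). The size for Notum includes control 96 h replicate 3, at 109.5 CPM against 46.1 and 45.1 CPM in the other replicates. For Dkk1 (-0.54 ± 0.47), Apcdd1 (-0.34 ± 0.20), Rnf43 (-0.26 ± 0.35), Znrf3 (0.10 ± 0.13) and Lgr5 (0.46 ± 0.46) no difference between arms was detected, with adjusted p from 0.18 to 0.587. Read together by gene, Axin2, Notum, Sp5 and Tnfrsf19 fell in the early arm and rose in the control arm. Nkd1, Dkk1 and Apcdd1 were not called in the early arm and rose in the control arm. Among these, the difference between arms was called only for Nkd1. Znrf3 fell in both, and Rnf43 and Lgr5 were called in neither. The share of all tested genes with each pattern was not computed. The summed presomitic mesoderm markers were 7.73 to 16.05 CPM at the end of the control pulse and 477 to 997 CPM a day later, against 13.6 to 14.02 and 12.7 to 13.9 CPM in the early arm. Untreated gastruloids had 32.5 to 33.8 CPM of them. In the untreated and these 2 early groups only 1 of the 4 markers had a mean of at least 1 CPM. The neuromesodermal and tailbud markers, at 162 to 191 CPM untreated, went from 302 to 576 CPM up to 1240.1 to 1709 CPM in the control arm. In the early arm they went from 239 to 307 to 199.9 to 207 CPM. The part of either list in the difference was not tested.

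**Figure D4:**
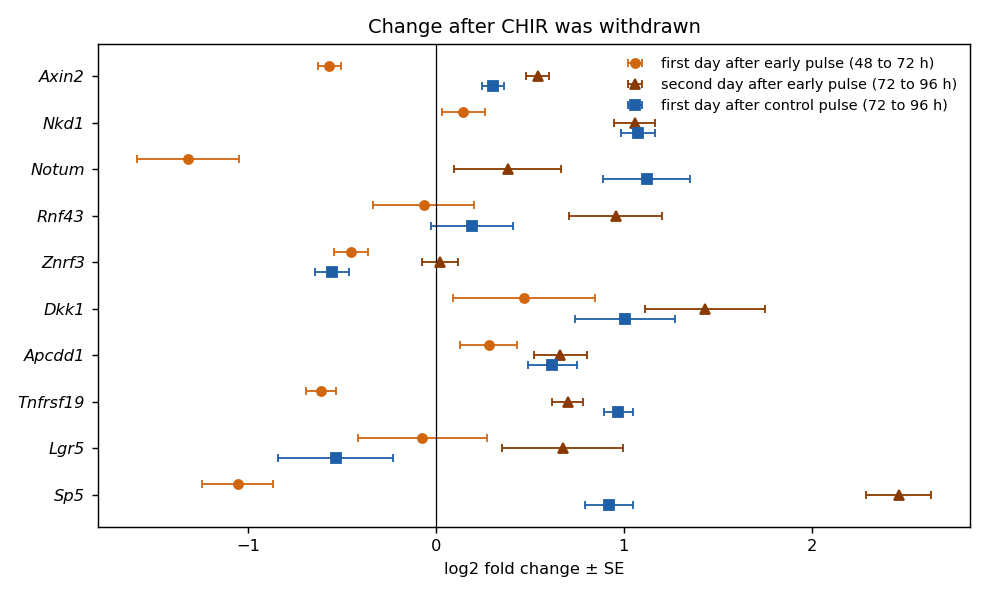
Change of each member (x axis, log2 units, bars for the SE of the fit) over the first and the second day after the early pulse and over the first day after the control pulse. Notum, Sp5, Tnfrsf19 and Axin2 lie below 0 on the first day of the early arm and above 0 on the first day of the control arm, and 7 members lie above 0 and passed the test on the second day of the early arm.

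Over the second day after the early pulse, from 72 to 96 h with no further CHIR, 7 members rose, against 17.6% of all tested genes. Sp5 moved the most, from 4.76, 4.24 and 4.35 to 23.0, 27.7 and 22.8 CPM (2.46 ± 0.17, adjusted p = 5.81e-08), above its 6.75 to 12.9 CPM at the end of the pulse. Dkk1 rose to 5.42, 6.82 and 5.54 CPM (1.43 ± 0.32, adjusted p = 0.00189) and Nkd1 to 20.8, 20.6 and 18.2 CPM (1.06 ± 0.11, adjusted p = 1.02e-06). For Dkk1, Nkd1, Rnf43, Apcdd1 and Tnfrsf19 too, every 96 h library lay above every library at the end of the pulse. For Tnfrsf19 (85.9 against 85.3 CPM) and Rnf43 (2.65 against 2.46 CPM) the lowest narrowly passed the highest. Early 96 h was not tested against early 48 h, and the share over all tested genes was not computed. Rnf43 rose to 2.65, 3.55 and 3.12 CPM (0.96 ± 0.25, adjusted p = 0.00589) and Apcdd1 to 15.03, 15.6 and 14.6 CPM (0.66 ± 0.14, adjusted p = 0.00144). Tnfrsf19 rose to 90.3, 86.5 and 85.9 CPM (0.70 ± 0.08) and Axin2 to 121, 124 and 109 CPM (0.54 ± 0.06, adjusted p = 2.81e-06). In CPM the rise of Axin2 over untreated at 96 h was thus 98.0% of that at the end of the pulse. It was 63.6% at 72 h, and the 96 h share of Tnfrsf19 was 107%. On the authors' FPKM the 96 h shares were 119% for Axin2 and 122% for Tnfrsf19. There the Axin2 libraries at 96 h (23.7 to 24.7 FPKM) lay above those at the pulse end (19.8 to 21.4 FPKM). Whether Axin2 passed its pulse-end level thus depends on the scale.

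The other 3 members were not called over the second day. Znrf3 was at 35.6, 46.3 and 37.0 CPM (0.02 ± 0.09, adjusted p = 0.873). Notum was at 9.39, 9.85 and 9.99 CPM, above all its 72 h libraries (0.38 ± 0.29, adjusted p = 0.317), and was called when control 96 h replicate 3 was left out of the fit (0.39, adjusted p = 0.00714). Lgr5 was at 2.16, 2.13 and 1.27 CPM (0.68 ± 0.32, adjusted p = 0.112) and was called without early 72 h replicate 3 (1.04, adjusted p = 0.0318). Over the same day the summed primitive streak markers went from 80.7 to 85.3 CPM up to 724 to 919 CPM, and T, the streak marker and Wnt target also called Brachyury, from a mean of 24.8 to 554 CPM (4.49 ± 0.18, adjusted p = 2.81e-11). The 4 definitive endoderm markers summed to 1.87 to 2.62 CPM at 72 h and 23.4 to 32.9 CPM at 96 h. Their part in the second rise of the members was not tested.

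At 96 h, with both arms of the same age, 7 members were lower in the early arm, against 29.6% of all tested genes called lower and 29.5% higher, with a median of -1.21 over the members and -0.01 over all tested genes. Notum stood furthest apart, at 14.6% of its control level (-2.77 ± 0.26, adjusted p = 3.84e-08), followed by Nkd1 at 23.4% (-2.10 ± 0.10) and Sp5 at 24.8% (-2.01 ± 0.14). Without control 96 h replicate 3, which was high for Notum at 109.5 CPM, these shares were 21.4%, 23.0% and 24.2%. Tnfrsf19 was at 34.8% (-1.52 ± 0.08), Dkk1 at 42.0% (-1.26 ± 0.27), Axin2 at 44.4% (-1.17 ± 0.06) and Apcdd1 at 49.3% (-1.01 ± 0.13) of the control level. The libraries of these 7 genes and of Rnf43 did not overlap between arms, against 30.5% of all tested genes lower without overlap. Rnf43 was at 71.6% and not called (-0.47 ± 0.22, adjusted p = 0.0779), but was called without early 48 h replicate 3 in the fit (adjusted p = 0.0216). Znrf3 was at 87.1% (-0.20 ± 0.09, adjusted p = 0.0754), and was called with early 96 h replicate 2 left out (-0.32, adjusted p = 0.00529) or control 96 h replicate 3 left out (-0.24, adjusted p = 0.0365). Lgr5 was at 116% (0.25 ± 0.31, adjusted p = 0.512). The 2 ligases and the R-spondin receptor were thus the 3 members for which no difference between arms was detected at 96 h. The presomitic markers summed to 477 to 997 CPM in the control arm and 4.50 to 6.91 CPM in the early arm, and the primitive streak markers to 733 to 957 and 724 to 919 CPM. Neuromesodermal and tailbud markers, which include Sox2, summed to 1240.1 to 1709 CPM in the control arm and 204 to 256 CPM in the early arm. Untreated gastruloids already had 162 to 191 CPM of them, and 32.5 to 33.8 CPM of the presomitic markers. Pluripotency markers, which also include Sox2, summed to 1592 to 1726 and 2879 to 3118 CPM, and the 5 extraembryonic endoderm markers to 11.4 to 26.7 and 40.7 to 43.9 CPM. The part of these markers in the differences was not tested.

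With the time since the pulse matched in place of age, early 72 h against control 96 h, 9 members were lower in the early arm, against 35.4% of all tested genes. Sp5 differed the most (-4.47 ± 0.17), followed by Nkd1 (-3.15 ± 0.10) and Notum (-3.15 ± 0.26). The size for Notum again includes the high control 96 h replicate 3. Lgr5 was not called (-0.43 ± 0.33, adjusted p = 0.258), and the call for Znrf3 (-0.22 ± 0.09, adjusted p = 0.0418) was lost when any of 8 libraries was left out.

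The early arm did not return to the untreated level for most members. At 72 h 9 members were above untreated gastruloids, against 21.2% of all tested genes, from 0.95 ± 0.16 for Apcdd1 to 3.54 ± 0.11 for Tnfrsf19, and Sp5 was at least 82.1-fold higher (at least 52.1-fold without untreated replicate 2). Znrf3 was the exception (0.21 ± 0.09, adjusted p = 0.0811), although its libraries, at 37.8 to 40.6 against 31.2 to 36.1 CPM, did not overlap. It was called without early 96 h replicate 2 in the fit (adjusted p = 0.035) and with no filter on low counts (0.0219). The same held in a fit of only the groups compared (0.00954). The call for Notum (1.11 ± 0.33, adjusted p = 0.0123) was lost without untreated replicate 1 (0.0578), and that for Lgr5 (1.18 ± 0.40, adjusted p = 0.0244) without untreated replicate 1 (0.0634) or 2 (0.125) or early 72 h replicate 3 (0.14). At 96 h all 10 were higher, against 29.8% of all tested genes, with Dkk1 at 4.63 ± 0.48, Tnfrsf19 at 4.25 ± 0.11 and Axin2 at 3.22 ± 0.07. The call for Znrf3 (0.24 ± 0.09, adjusted p = 0.0405) was lost with DESeq2 size factors (0.0541) and without early 96 h replicate 2 (0.289), untreated replicate 1 (0.0809) or untreated replicate 3 (0.146). Sp5 at 96 h was at least 456-fold above the untreated bound in the early arm (290-fold without untreated replicate 2) and at least 1842-fold in the control arm (1171-fold), where all 10 members were higher, against 37.8% of all tested genes. On log2(FPKM + 1), Lgr5 was not called against untreated at early 72 h (adjusted p = 0.149), early 96 h (0.0649) or control 96 h (0.134), nor was Rnf43 at early 72 h (0.0645). These comparisons differ in age and share the untreated group with both pulse responses.

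Across the 18 libraries the members followed each other to different degrees. Pearson's r of log2 CPM over the 45 pairs of members ran from 0.453 to 0.991 with a median of 0.857, as a description of libraries that share groups and ages. Axin2 was most like Tnfrsf19 (r = 0.991) and Sp5 (r = 0.987), Nkd1 was most like Apcdd1 (r = 0.972), and Dkk1 was most like Sp5 (r = 0.952). Znrf3 was the member least like each of the others, and its own highest r was 0.677, with Axin2. Of the tested genes other than Axin2, 251 had an r of at least 0.9 with it, the members Tnfrsf19, Sp5 and Dkk1 among them. The 5 named genes outside the set with the highest values were Sall3 (r = 0.995), Nt5e (r = 0.986), Ror2 (r = 0.984), Gjc1 (r = 0.982) and Mcc (r = 0.980). Sall3, a zinc finger factor, had means of 6.40 CPM untreated, 59.5, 38.9 and 53.2 CPM in the early arm and 91.9 and 107 CPM in the control arm.

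The rest of the pathway was read from 5 lists, each count beside the shares of all tested genes called higher and lower. These lists too were chosen with earlier results of these data known. Of 16 tested target genes outside the members, 8 were higher and 1 lower after the early pulse (23% and 20.7% of all genes), and 11 were higher and 1 lower after the control pulse (31.1% and 30.3%). T rose from 0.593 to 40.6 CPM at the end of the early pulse (6.12 ± 0.33) and to 1048 CPM at the end of the control pulse (10.81 ± 0.28), and Sp8, a relative of Sp5, from 2.23 to 18.9 (3.08 ± 0.17) and 66.6 CPM (4.89 ± 0.16). Over the first day after the pulse 4 of the 16 rose and 5 fell in the early arm, near the 20.7% and 21.9% of all tested genes, and 11 rose and 3 fell in the control arm, against 27.5% and 27.4%. Dkk4, a secreted inhibitor related to Dkk1, fell from 1.72 to 0.34 CPM in the early arm (-2.31 ± 0.42). At 96 h 2 of the 16 were higher and 10 lower in the early arm (29.5% and 29.6% of all genes). Cdx2, a caudal homeobox factor, was at 3.55 against 283 CPM (-6.32 ± 0.27), and Tcf7, which encodes a TCF factor, at 143 against 126 CPM (0.18 ± 0.05).

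Of 15 tested Wnt ligands, 7 were higher and 2 lower after the early pulse, and 9 higher and none lower after the control pulse (23% and 31.1% of all genes were called higher, 20.7% and 30.3% lower). Wnt8a rose from 2.36 to 86.7 CPM (5.26 ± 0.31) and 238 CPM (6.72 ± 0.30), and Wnt5b from 1.96 to 22.3 CPM (3.50 ± 0.15) and 41.0 CPM (4.38 ± 0.14). Over the first day after the pulse, Wnt5b fell to 15.5 CPM in the early arm (-0.53 ± 0.10) and rose to 134 CPM in the control arm (1.70 ± 0.09). At 96 h 3 ligands were higher and 9 lower in the early arm (29.5% and 29.6% of all genes). Wnt3a was at 1.80 CPM there and at 136 CPM in the control arm (-6.21 ± 0.18), whereas Wnt3 was at 51.2 and 4.59 CPM (3.43 ± 0.24).

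The 17 tested receptors, co-receptors and R-spondins held 3 higher and 6 lower after the early pulse (23% and 20.7% of all genes) and 8 higher and 5 lower after the control pulse (31.1% and 30.3%). Fzd10, a Frizzled receptor, rose from 6.72 to 40.4 CPM (2.63 ± 0.20) and 169 CPM (4.69 ± 0.19), and Lrp5 fell from 142 to 77.6 CPM after the early pulse (-0.87 ± 0.06). At 96 h 6 were higher and 8 lower in the early arm (29.5% and 29.6% of all genes). Lgr4, a relative of Lgr5, was at 147 against 46.6 CPM (1.65 ± 0.06), and the R-spondin Rspo3 at 4.58 against 184 CPM (-5.32 ± 0.18). Of the 15 tested secreted and membrane inhibitors outside the members, 1 was higher and 3 lower after the early pulse (23% and 20.7% of all genes), and 3 higher and 5 lower after the control pulse (31.1% and 30.3%). Sfrp1, which binds Wnt ligands, fell in both, from 17.3 to 6.39 CPM (-1.44 ± 0.11) and 7.86 CPM (-1.14 ± 0.10). Of 21 genes of the destruction complex and its effectors, 3 were higher and 10 lower after the early pulse (23% and 20.7% of all genes) and 7 higher and 7 lower after the control pulse, close to the 31.1% and 30.3% of all genes. Tcf7l1, a TCF factor that represses targets, fell from 175 to 39.9 CPM at the end of the control pulse (-2.13 ± 0.15).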

How the data were processed

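PolyA RNA of 18 libraries was measured, in groups defined by the age and the CHIR window that the labels give. The authors trimmed reads with cutadapt 4.0, aligned them with STAR 2.7.8a to mm10 and ran Cufflinks 2.2.1, per the submitters' processing notes. The count table the authors deposited holds raw counts, and a second deposited table gives FPKM, which corrects for transcript length and depth. The deposited count table is named for HTSeq, whose version, strand mode and treatment of multi-mapped reads were not given in the sources used here. No sample column was left unused (0 of them).

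Counts were filtered with filterByExpr by group, scaled by TMM and tested in 1 fit of all groups with edgeR 4.0.16 (glmQLFit and glmQLFTest, 2-sided, 12 comparisons, Benjamini-Hochberg over 16041 genes) in R 4.3.3. The SE is the absolute log2 fold change divided by the square root of F. A fold against a group with no counts was computed against 3 counts over that group. Values per library are TMM-scaled CPM, and log2 CPM for the correlations used a prior count of 2. FPKM was tested as log2(FPKM + 1) with limma 3.58.1. Figures were drawn with matplotlib 3.10.9.

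All 10 members were tested in every comparison, and for some comparisons the text names only part of them. Genes outside the set were up to 2 of each of 5 pathway lists with the lowest adjusted p in each direction. T was added as a reference, with the 5 named genes that had the highest r with Axin2. Examples in the text come from those genes. The members and lists were chosen with earlier results of these data known. Alternatives were DESeq2 1.42.0 size factors and its Wald test, other filters on low counts, log2(FPKM + 1) on the same and on all genes, log2(FPKM + 0.1), only the groups compared, a replicate block, each library left out and all 3 control libraries numbered 3 left out. The fitting code was tested on simulated data.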

Additional observations from a re-analysis of the deposited data

Results flagged for a closer look

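For 5 members the change over the first day after the pulse differed between the arms by an interaction test (edgeR's quasi-likelihood test, Benjamini-Hochberg adjustment over all tested genes), with 3 libraries in each of the 4 groups. The change was more negative in the early arm for each, as it was for 21.7% of all tested genes, and more positive for 22.8%. The early arm minus the control arm was -0.87 ± 0.08 for Axin2 (adjusted p = 1.78e-07), -0.93 ± 0.15 for Nkd1 (5.83e-05), -2.44 ± 0.36 for Notum (2.25e-05), -1.58 ± 0.11 for Tnfrsf19 (3.74e-09) and -1.98 ± 0.23 for Sp5 (3.50e-06), in log2 units. In 4 of these genes the means fell in the early arm and rose in the control arm, and for Nkd1 the early arm was not called. The size for Notum includes control 96 h replicate 3, at 109.5 CPM against 46.1 and 45.1 CPM in the other replicates. The arms differ in age at each step, so age and arm cannot be told apart.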

How the results depend on the processing

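Of the fold changes of the members under the alternatives, 3278 kept direction and side of the threshold, 46 lost and 20 gained a call, and 16 changed sign, all of them uncalled values. On log2(FPKM + 1), of the same or of all genes, the early pulse called 6 members in place of 10. Over the first day of the early arm 1 member (Apcdd1) was called higher in place of 0 in a fit of only the groups compared (0.31, adjusted p = 0.0125) and without the 3 control libraries numbered 3 (0.30, 0.00916), and leaving out each library gave 0 to 1. Over the first day of the control arm 2 members were lower in place of 1 without those 3 libraries, and 1 to 2 with each library left out. The signs that changed were, over the first day of the early arm, Rnf43 at 0.0090 on log2(FPKM + 1) of either gene set, 0.093 on log2(FPKM + 0.1) and -0.39 to 0.28 with each library left out, and Lgr5 at 0.16 on log2(FPKM + 1) of either gene set, 0.50 on log2(FPKM + 0.1) and -0.44 to 0.22 with each library left out. The others were the difference between arms of Rnf43, -0.58 to 0.091, and Znrf3 on the second day of the early arm, -0.10 to 0.094, with each library left out, and Lgr5 early 72 h against control 96 h, 0.025 on log2(FPKM + 1) of either gene set and 0.0098 on log2(FPKM + 0.1). The cause was not tested. On log2(FPKM + 1) the share of called genes that were higher was 41.6% against 52.7% for the early pulse, 32.3% against 48.2% between the ends of the pulses, 70.1% against 48.7% over the first and 65.1% against 50.0% over the second day of the early arm, and 63.2% against 50.9% for early 96 h against untreated.

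Same-numbered libraries correlated weakly: of 45 same-numbered pairs 5 had a correlation of deviations over 0.1, and the range was -0.20 to 0.21. Among 3 candidates each, 22 correlated best with their own number, and between control 72 h and control 96 h all 3 numbers did. Some weak pairing by number may therefore be present. With the replicate number as a block, 8 members in place of 7 were lower in the early arm at 96 h, and 10 in place of 9 were above untreated at early 72 h, in both cases through Znrf3 (adjusted p = 0.0442 and 0.0455), and no other call of a member changed. Few reads limit Rnf43, Dkk1 and Lgr5, and the FPKM files give no depth.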
